A study of Arabidopsis thaliana with 24 samples.

Results

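Cooling at low light was examined in Castelnuovo-12, an Arabidopsis thaliana ecotype from Italy (IT), by setting its 3 Low light, cool libraries against its 3 Low light, warm libraries, 6 of the 24 libraries of the series. Columns of the deposited count table were assigned to samples by the library code in each sample's description. Cool plants (IT_LLC) had leaves at 16 °C by day and 12.5 °C by night, and warm plants (IT_LLW) had leaves at 25 °C and 20 °C. Both were wild-type plants of sub-line 24, raised from seed in growth chambers, with 9 h photoperiods of 100 µmol photons per square metre and second. For each library, 2 discs of 0.73 square cm were taken from the youngest fully developed leaf of vegetative plants at the end of the 15 h night. Libraries were made from RNA depleted of ribosomal RNA. The remaining groups were IT in high light and Rodasen-47 (SW, Sweden, sub-line 29) in both lights, each cool or warm, with 3 libraries a group. High light was 1000 µmol of photons on the same scale, with a daytime leaf temperature of 14 °C in the cool regime. Replicates are called biological in the labels, but separate plants or growth runs are not stated, so the p-values rest on the spread among these libraries, which may be technical.

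When leaves of Arabidopsis cool, the transcription factors CBF1 to CBF3 are induced and bind the short DNA element CCGAC in front of cold-regulated (COR) genes. The COR proteins, with raffinose, proline and more unsaturated lipids, protect membranes and proteins when water freezes. Cooling is also known to slow leaf expansion, to shift the circadian clock and, in many accessions, to raise salicylic acid defence.

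Total counts were 13155426 to 14996439 in the cool IT libraries and 14933144 to 16860963 in the warm ones, within the 10967425 to 17467653 of the whole series. Plastid transcripts took 65.05% to 67.15% of the cool IT libraries and 62.38% to 63.2% of the warm ones, without overlap, and nuclear ribosomal RNA took 0.179% to 1.251% in cool IT and 0.476% to 2.354% in warm IT. Leaf identity was checked with 4 mesophyll markers, whose summed level was 7759 to 9376 CPM (counts per 1e6 counts, scaled by TMM factors) in cool IT and 8171 to 9681 CPM in warm IT, and 0 of the 4 were called between them by edgeR, or 2 lower with only the 6 libraries in the fit. The lowest value in the table is 1 count and no cell is 0, so a gene at 1 count in a library is described as at the lowest value.

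The cool and the warm IT libraries carried different sets of transcripts. To show this without using the 6 libraries, transcripts were chosen that were on in every low-light SW library (at least 1 CPM) and off in every high-light SW library (at most 3 counts), which gave 75 transcripts (0.223% of the genes in the table), or the reverse, which gave 52 (0.155%). Of the 75, 60 were on in all cool IT libraries and 0 were off there, whereas 62 were off in all warm IT libraries and 0 were on. Of the 52, 51 were off in the cool IT libraries and 49 were on in the warm ones. Over all 33610 genes of the table, 0.372% were on in every cool and off in every warm IT library, and 0.411% the other way round. The summed level of the 75 was 401.5 to 427.7 CPM in cool IT, 8.7 to 10.9 CPM in warm IT and 445.7 to 506.6 CPM in the SW libraries labelled low light, warm. That of the 52 was 4.2 to 4.7 CPM in cool IT, 449.4 to 472.1 CPM in warm IT and 3.5 to 3.9 CPM in those SW libraries. The cool IT libraries thus held the set of the low-light SW libraries, and the warm IT libraries held the set of the high-light SW libraries. Cool high-light IT replicate 3 held both sets, the 75 at 267.9 CPM and the 52 at 152.3 CPM, and enters the fits below only through the shared estimate of spread and the gene filter.

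**Figure D1:**
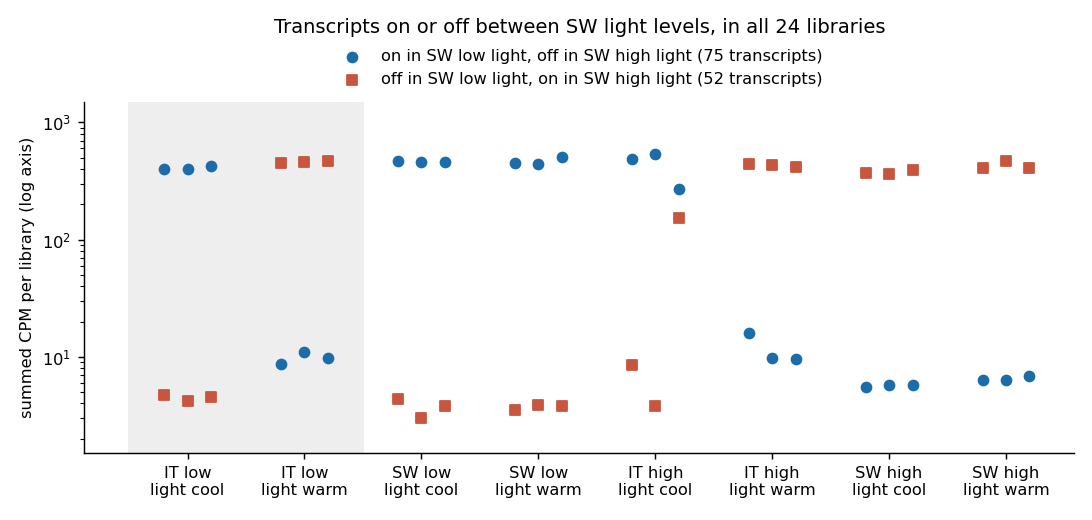
Summed level (CPM, log axis) of 75 transcripts chosen as on in low-light SW and off in high-light SW (circles) and of 52 chosen the other way round (squares), for each of the 24 libraries by labelled group, with 3 points a group. In the shaded IT groups the circles are at 401.5 to 427.7 CPM in cool and 8.7 to 10.9 CPM in warm libraries, and the squares are the reverse.

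The library codes of the cool IT libraries belong to a series with numbers and those of the warm IT libraries to a series with letters. Temperature, transcript set and code series therefore cannot be told apart in the comparison of cool with warm IT. Other comparisons of the same table are given beside it. The first sets the cool IT libraries against the warm low-light SW libraries (SW_LLW): these hold the same transcript set, but differ in ecotype label, temperature and code series. The second is the cool step in SW averaged over the light levels, in which each step stays within a transcript set, the code series are balanced and no library is shared with the IT comparison. The first shares its cool libraries with the IT comparison, so its values are given side by side only. The sets divided SW by light and IT by temperature, so the libraries did not group by their ecotype labels. Whether the labels of some groups were exchanged was not tested, and every value below that is given for IT or SW holds for the libraries so labelled.

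Genes were counted as called when edgeR's quasi-likelihood test gave an adjusted p under 0.05 with Benjamini-Hochberg adjustment over all 17709 genes tested, and every adjusted p below is from that test. Fold changes are log2 values, cool minus warm, with standard errors (SE). Of these genes, 3605 (20.4%) were higher in cool IT and 3541 (20.0%) were lower. In 3536 of the higher and 3468 of the lower genes the 3 cool libraries did not overlap the 3 warm ones. This was counted among called genes only, so it is no separate support for the calls. The share without overlap over all genes tested was not counted. The change was at least 1 log2 unit in 2005 higher and 1815 lower genes, and at least 4 log2 units in 153 and 172. The median change over all genes tested was 0.011.

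In the cool step of SW averaged over light, 3984 genes (22.5%) were higher and 3129 (17.7%) lower. Of the genes higher in cool IT, 1350 were also higher there, 37.4% of the IT and 33.9% of the SW calls, and 192 (5.33% of the IT calls) were lower. Of those lower in cool IT, 1364 were also lower in SW, 38.5% of the IT and 43.6% of the SW calls, and 277 (7.82% of the IT calls) were higher. Fewer calls were shared with the SW step at low light alone, where 21.1% of all genes were higher and 19.1% lower. Of the genes higher in cool IT, 950 (26.4%) were higher in that step and 609 (16.9%) lower. Of those lower in cool IT, 1160 (32.8%) were lower in it and 399 (11.3%) higher. Cool IT against warm SW gave 1976 higher (11.2%) and 2047 lower genes (11.6%). The shares of all genes called in each direction of a comparison are the background for its gene lists below.

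**Figure D2:**
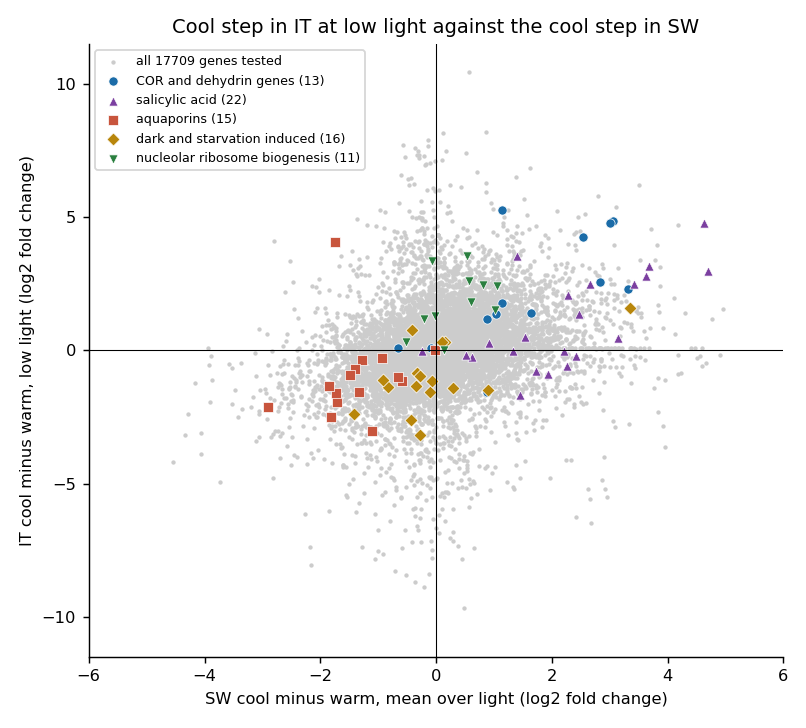
Log2 fold change of each gene tested in cool against warm IT at low light (vertical axis) and in cool against warm SW averaged over light (horizontal axis), with 5 gene lists in colour. Of the 13 COR and dehydrin genes 10 were called higher on each axis, of the 15 aquaporins 11 and 14 were called lower in IT and SW, and of the 16 dark- and starvation-induced genes 12 were called lower in IT and 2 in SW.

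Cold-regulated genes were among the largest increases. Of 13 COR and dehydrin genes tested, 10 were higher in cool IT and 0 lower, with a list median of 1.78 on the log2 scale. KIN2 (AT5G15970), a small hydrophilic protein induced by cold, had 167, 204 and 189 CPM in the cool IT libraries, against 4.77, 4.72 and 5.13 CPM in the warm ones, a log2 fold change of 5.26 ± 0.40 (SE; adjusted p = 7.81e-09). COR15A (AT2G42540), a chloroplast protein that protects membranes during freezing, had 45.9, 62.5 and 75.0 CPM in cool IT, against 2.58, 1.65 and 1.95 CPM in warm IT (4.87 ± 0.53, adjusted p = 8.36e-07). All 3 cool libraries lay far above all 3 warm ones for both genes. COR15B, its neighbour and close copy, rose by 4.27 ± 0.41, the plasma membrane protein COR413-PM1 by 1.78 ± 0.24 and the dehydrin COR47 by 1.4 ± 0.24. RD29A (AT5G52310), a widely used marker of cold and dehydration, had 13.3, 20.7 and 17.3 CPM in cool IT, against 2.91, 2.65 and 2.96 CPM in warm IT (2.58 ± 0.54, adjusted p = 0.000799). The chloroplast envelope protein COR413IM1 was not called, at 22.8, 28.8 and 25.3 CPM in cool IT and 23.8, 24.0 and 25.3 CPM in warm IT. COR15A and COR15B, and KIN2 and its neighbour KIN1, can exchange reads, so the split within each pair is uncertain.

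The same list stood at 9 higher and 0 lower in cool IT against warm SW (median 1.69), and at 10 higher and 0 lower in the SW cool step averaged over light (median 1.14). KIN2 was at 27.1, 28.1 and 19.1 CPM in warm SW, above the warm IT level, and its log2 fold change was 2.91 in cool IT against warm SW and 1.13 in the SW step. The values of COR15A were 5.11 and 3.05, those of COR15B 4.82 and 2.54, and those of RD29A 2.60 and 2.84, all called. In the SW step at low light alone, 0 of the 13 genes were higher and 1 lower (median -0.08). There COR15A stood at -0.87, COR15B at 0.7 and RD29A at -1.52. COR15A was at 1.71, 1.46 and 2.1 CPM in warm SW, a range that overlapped warm IT.

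**Figure D3:**
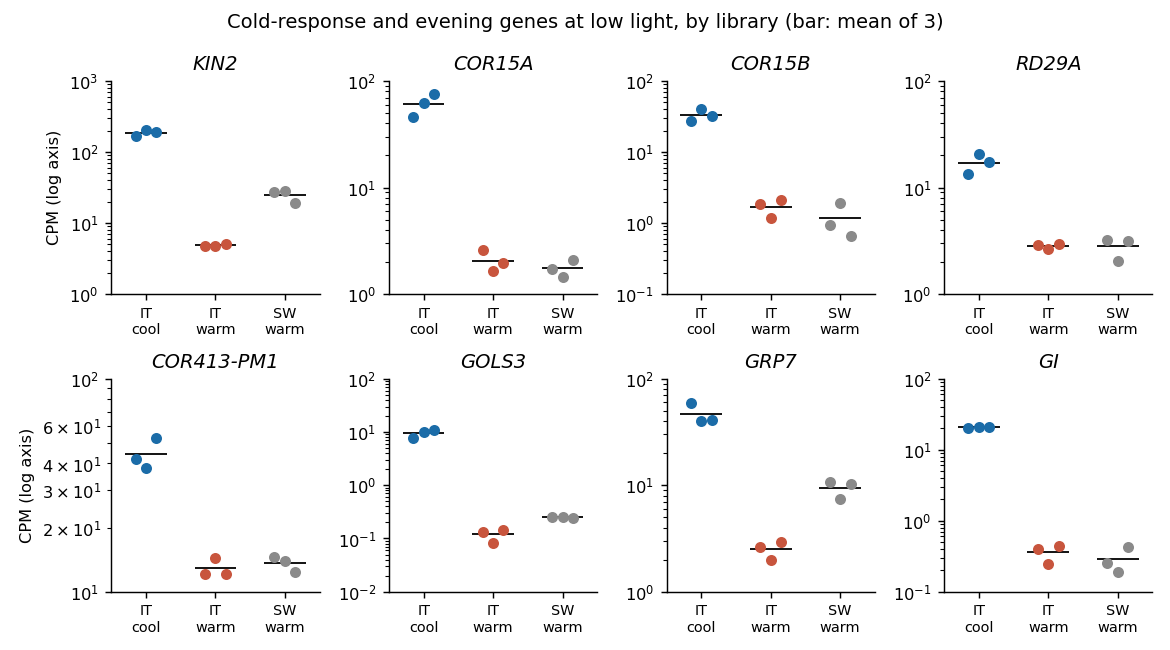
CPM (log axes, each panel with its own range) of 8 genes in the 3 libraries each of cool IT, warm IT and warm SW at low light, with the mean as a bar. In all 8 panels the 3 cool IT points lie above the other 6, and KIN2 and GRP7 are higher in warm SW than in warm IT.

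The promoters of COR15A, RD29A, the galactinol synthase gene GOLS3 and the RNA-binding protein gene GRP7 are shown because they hold the elements that cold and clock factors are known to bind. The sequences are the 250 bases before the annotated start, on the gene's strand, from the RefSeq annotation of TAIR10.1; the submitters' processing notes name TAIR10, and the count table has no coordinates. Capitals mark CCGAC, the CBF-binding core, or AAAATATCT, the evening element bound by morning clock proteins, each on either strand.
COR15A: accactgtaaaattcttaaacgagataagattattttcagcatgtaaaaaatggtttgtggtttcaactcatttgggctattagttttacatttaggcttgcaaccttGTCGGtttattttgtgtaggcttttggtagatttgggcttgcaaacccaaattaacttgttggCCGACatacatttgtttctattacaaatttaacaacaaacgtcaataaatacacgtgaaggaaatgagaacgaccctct
GOLS3: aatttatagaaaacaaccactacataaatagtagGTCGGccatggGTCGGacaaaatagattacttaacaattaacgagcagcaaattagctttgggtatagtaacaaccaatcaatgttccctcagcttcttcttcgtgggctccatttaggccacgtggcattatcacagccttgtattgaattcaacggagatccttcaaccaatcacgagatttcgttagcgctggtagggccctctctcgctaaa
RD29A: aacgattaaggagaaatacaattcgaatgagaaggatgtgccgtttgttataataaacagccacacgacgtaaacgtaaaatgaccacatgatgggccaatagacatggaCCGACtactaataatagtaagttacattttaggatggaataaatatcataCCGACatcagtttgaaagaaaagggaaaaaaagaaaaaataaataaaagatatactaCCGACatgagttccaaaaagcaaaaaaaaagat
GRP7: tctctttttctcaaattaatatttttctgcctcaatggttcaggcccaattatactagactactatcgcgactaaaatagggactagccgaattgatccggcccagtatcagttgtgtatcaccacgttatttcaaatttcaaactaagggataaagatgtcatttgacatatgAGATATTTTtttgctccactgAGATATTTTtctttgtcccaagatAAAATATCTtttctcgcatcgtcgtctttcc
COR15A (chr2:17712331-17712580, minus strand) and GOLS3 (chr1:3019389-3019638, plus strand) each held 2 copies of CCGAC, and RD29A (chr5:21240467-21240716, plus strand) held 3. GRP7 (chr2:9266558-9266807, minus strand) held 3 copies of AAAATATCT. CCGAC was present in 6 of 14 COR and dehydrin promoters (42.9%), against 12% of all 27443 nuclear protein-coding promoters of this length. It was in 14.1% of the promoters of genes higher in cool IT, 11.8% of those of lower genes and 13.3% of all genes tested. AAAATATCT was in 3.8% of promoters of higher genes, 1.7% of those of lower genes and 2.6% of all genes tested. The motifs do not overlap each other in letters. The promoters shown were picked for these matches. Of other genes that rose, KIN2, COR15B and COR47 held 0 copies of the CBF-binding core here. GI and PRR3 rose too and held 0 evening elements. COR413-PM1 held 1 core and TOC1 held 1 evening element, and both rose. Of genes that fell, PIP1C, MBP1, P5CR, OHP2 and PP2-A1 each held 1 core. So did ISA3, PIF7, SFR2, MAF1 and MAF3, which rose. GAI and NIG, which fell, each held 1 evening element. ISA3, SNC1, PWD and PGM1 held 1 evening element and RPP4 held 2, and all of these rose. GRP8 held 1 evening element and was not called. These are matches of letters in a fixed window, and no binding was measured.

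The CBF genes themselves were detected at low levels at the end of the night. CBF2 (AT4G25470) had 1.54, 1.12 and 1.65 CPM in cool IT, against 0.132, 0.248 and 0.0723 CPM in warm IT, where no library held over 3 counts, and the ratio of summed counts was 9.69 (exact 95% interval 4.18 to 27.5, counting error only; adjusted p = 5.02e-05). CBF1 was at the lowest value in all warm IT libraries and at least 2.37-fold higher in cool IT, and CBF3 had a ratio of summed counts of 6.08 (2.08 to 24.2). The call for CBF3 was lost without warm IT replicate 1, at an adjusted p of 0.0563. The 3 CBF genes are near-identical neighbours, so reads may be exchanged among them. Of 10 cold transcription factors, 4 were higher in cool IT and 1 lower, against 5 and 0 in cool IT against warm SW and 7 and 1 in the SW step. In a fit of the 12 low-light libraries, 2 were higher in cool IT. DREB2A, a relative of the CBFs tied to drought and heat, rose by 2.24 ± 0.41. HSFC1, a heat-shock factor of the first cold wave, was at the lowest value in all cool IT libraries and at least 6.5-fold lower there.

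Among cold-linked RNA-binding proteins, GRP7 (AT2G21660), which is driven by the clock and by cold, had 59.6, 40.0 and 41.2 CPM in cool IT, against 2.65, 1.99 and 2.96 CPM in warm IT (4.2 ± 0.61, adjusted p = 2.13e-05). It was also higher in cool IT than in warm SW, by 2.3, and in the SW step, by 1.94. In the SW step at low light alone GRP7 stood at 0.67, not called. The cold shock domain protein CSP3 fell by 1.15 ± 0.24, and the other 4 members, GRP8, CSP1, CSP2 and CSP4, were not called.

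Galactinol, the donor for raffinose synthesis, is made by galactinol synthases. GOLS3 (AT1G09350), the cold-induced member, had 7.77, 10.1 and 11.1 CPM in cool IT, against 0.132, 0.0827 and 0.145 CPM in warm IT, where no library held over 3 counts. The ratio of its summed counts was 79.5 (exact 95% interval 33.8 to 246.0; adjusted p = 1.45e-05). GOLS1, induced by heat and drought, had 7.29, 7.53 and 7.59 CPM in cool IT, against 14.9, 9.43 and 15.3 CPM in warm IT (-0.83 ± 0.25), a call lost without warm IT replicate 1 or 3 (adjusted p of 0.0527 and 0.0589). Proline genes were split by enzyme. P5CS1 (AT2G39800), the rate-limiting enzyme of proline synthesis, had 318, 267 and 283 CPM in cool IT, against 54.7, 31.6 and 70.0 CPM in warm IT (2.47 ± 0.32, adjusted p = 4.4e-06). PRODH1 (AT3G30775), which degrades proline, had 7.53, 4.18 and 4.13 CPM in cool IT, against 26.2, 64.9 and 68.8 CPM in warm IT (-3.34 ± 0.42, adjusted p = 4.07e-06). P5CR, the last enzyme of proline synthesis, fell by 1.42 ± 0.13. In cool IT against warm SW, P5CS1 and PRODH1 were not called, at 0.80 and 0.53, and P5CR was higher, by 0.67. In all, 2 of 9 raffinose and proline genes were higher in cool IT and 3 lower.

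Of 9 tested genes of fatty acid desaturation and freezing lipids, 2 were higher and 2 lower, near the 20.4% higher and 20.0% lower among all genes. Without any 1 of the 6 libraries 1 was higher, and without cool IT replicate 1 or 3 or warm IT replicate 2, 1 was lower. The desaturase ADS2, needed for growth in the cold, had 31.0, 27.3 and 28.8 CPM in cool IT, against 12.9, 11.1 and 11.3 CPM in warm IT (1.3 ± 0.28, adjusted p = 0.000904). Its change was similar in cool IT against warm SW (1.14) and in the SW step (1.2), both called. FAD2 and FAD3, the desaturases of the endoplasmic reticulum, fell by 0.87 ± 0.20 and 1.21 ± 0.42. SFR2, which remodels chloroplast lipids on freezing, rose by 0.50 ± 0.19. SFR2 lost its call without any 1 of the 6 libraries (adjusted p of 0.0501 to 0.113), and FAD3 without cool IT replicate 1 or 3 or warm IT replicate 2 (0.0917 to 0.103). In a fit of the 6 libraries alone, 6 members were lower.

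Leaf starch is broken down through the night. Of 18 starch breakdown genes 8 were higher in cool IT and 1 lower (median 0.40), against 10 and 1 in cool IT against warm SW and 13 and 1 in the SW step. PHS2 (AT3G46970), the cytosolic glucan phosphorylase, had 41.4, 56.0 and 63.5 CPM in cool IT, against 8.21, 8.27 and 6.36 CPM in warm IT (2.81 ± 0.31, adjusted p = 8.26e-07). PWD, which phosphorylates the granule surface, rose by 2.03 ± 0.20, the phosphatase SEX4 by 1.74 ± 0.23, and the debranching enzymes LDA and ISA3 by 1.80 ± 0.16 and 2.16 ± 0.28. BAM9 (AT5G18670), a beta-amylase relative without catalytic activity, had 32.4, 25.3 and 20.4 CPM in cool IT, against 289, 275 and 331 CPM in warm IT (-3.52 ± 0.35, adjusted p = 2.85e-07). All 6 of these genes moved the same way, with a call, in cool IT against warm SW and in the SW step.

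Of 16 starch synthesis genes, 4 were higher and 1 lower, against 20.4% higher and 20.0% lower among all genes. SS4, which starts new granules, had 46.0, 41.6 and 40.0 CPM in cool IT, against 14.0, 11.8 and 17.3 CPM in warm IT (1.56 ± 0.18, adjusted p = 1.27e-06). The branching enzyme SBE2.1 rose by 1.72 ± 0.25 and the plastid phosphoglucomutase PGM1 by 1.35 ± 0.25. GBSS1, which makes amylose, fell by 1.32 ± 0.25. With only the 6 libraries or only the 12 low-light libraries in the fit, 7 members were higher. Among 14 genes of sucrose and sugar transport 5 were higher and 4 lower, or 9 higher with only the 6 libraries in the fit. The sucrose synthase SUS1 rose by 1.90 ± 0.29, the vacuolar sugar importer TMT1 by 1.16 ± 0.14 and the sucrose transporter SUC1 by 1.32 ± 0.26. ERDL6, which exports glucose from the vacuole, fell by 1.43 ± 0.15, and the vacuolar fructose carrier SWEET17 by 2.46 ± 0.46.

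Dark- and starvation-induced genes, which respond to sugar shortage, were mostly lower in cool IT: 12 of 16 fell and 1 rose (median -1.24). DIN10 (AT5G20250), a raffinose synthase-like gene induced by darkness, had 249, 129 and 124 CPM in cool IT, against 748, 1350 and 1000 CPM in warm IT (-2.62 ± 0.48, adjusted p = 0.000229). SEN1 (AT4G35770), a marker of darkness and senescence, had 38.5, 17.9 and 19.3 CPM in cool IT, against 163, 278 and 250 CPM in warm IT (-3.19 ± 0.62, adjusted p = 0.000406). MCCA and IVD, enzymes of leucine breakdown, fell by 1.55 ± 0.23 and 1.41 ± 0.33, and the trehalose phosphate synthase homologue TPS9 by 1.38 ± 0.33. The direction differed by comparison: in cool IT against warm SW 6 members were higher and 0 lower (median 0.71), and in the SW step 2 were higher and 2 lower. At low light alone, the SW step had 7 higher and 2 lower (median 0.63). SEN1 was at 4.25, 3.88 and 4.74 CPM in warm SW, below the cool IT libraries, and DIN10 at 48.9, 27.5 and 26.8 CPM. In cool IT against warm SW, DIN10 was higher by 2.28 and SEN1 by 2.55, whereas both were uncalled in the SW step, at -0.43 and -0.28. In the SW step at low light alone DIN10 stood at 0.55 and SEN1 at 1.59. The summed level of the list was 662.1 to 913.0 CPM in cool IT and 1762 to 2753 CPM in warm IT. The count of higher members was 0 without cool IT replicate 1 or warm IT replicate 1 or 2, and 4 with only the 6 libraries in the fit.

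The beta-xylosidase gene BXL1 (AT5G49360), which trims cell wall polysaccharides, fell with them. It had 41.3, 15.8 and 20.2 CPM in cool IT, against 896, 1200 and 1090 CPM in warm IT (-5.36 ± 0.74, adjusted p = 1.28e-05). Warm SW averaged 19.6 ± 3.5 CPM (SD, n = 3), within the range of cool IT, and neither cool IT against warm SW (0.40) nor the SW step (-0.28) was called. In the SW step at low light alone BXL1 stood at 2.88, opposite in sign to IT.

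Clock genes were sampled just before dawn. Of 12 morning genes 7 were lower in cool IT and 2 higher (median -0.89), and of 12 evening genes 5 were higher and 1 lower (median 0.58). The lower evening count was 2 without cool high-light IT replicate 3 and by DESeq2. GI (AT1G22770), which acts in the clock and in flowering, had 20.3, 21.2 and 21.0 CPM in cool IT, against 0.397, 0.248 and 0.434 CPM in warm IT (5.80 ± 0.57, adjusted p = 2.85e-07). PRR3 rose by 4.53 ± 0.74, the evening repressor TOC1 by 1.52 ± 0.25 and ELF3, of the evening complex, by 0.98 ± 0.26. The F-box photoreceptor ZTL fell by 0.84 ± 0.14. Among morning genes, PRR9 (AT2G46790), a repressor that peaks after dawn, had 13.3, 13.2 and 14.7 CPM in cool IT, against 0.927, 1.82 and 1.52 CPM in warm IT (3.28 ± 0.30, adjusted p = 8.68e-08). The activators RVE4 and RVE8 fell by 1.77 ± 0.21 and 0.90 ± 0.16, the core repressor LHY by 0.88 ± 0.13 and the flowering repressor CDF1 by 1.32 ± 0.20. In cool IT against warm SW these 10 genes moved in the same direction, with calls. In the SW step all but PRR9 did, and PRR9 stood at -0.41, not called.

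Salicylic acid genes rose in part. Of 22 tested, 8 were higher in cool IT and 2 lower (median 0.37, or 0.0 with genes at the lowest value in 1 group set to their bound). LURP1 (AT2G14560), a defence gene induced by oomycetes, had 13.9, 9.48 and 17.7 CPM in cool IT, against 0.464, 0.414 and 0.578 CPM in warm IT (4.79 ± 0.98, adjusted p = 0.000681). WRKY70, a transcription factor of this pathway, had 16.7, 7.04 and 13.9 CPM in cool IT, against 2.38, 2.81 and 1.52 CPM in warm IT (2.48 ± 0.54, adjusted p = 0.00112). The salicylic acid receptor NPR4 rose by 2.06 ± 0.25 and the secreted peptide gene PNP-A by 3.53 ± 0.66. The antimicrobial protein genes PR1 and PR5 spread widely between cool libraries: PR1 had 10.3, 42.4 and 13.1 CPM in cool IT, against 4.84, 1.24 and 2.1 CPM in warm IT (2.99 ± 0.95, adjusted p = 0.0164), and PR5 8.91, 53.4 and 12.9 CPM in cool IT, against 2.45, 1.65 and 4.12 CPM in warm IT (3.19 ± 0.70, adjusted p = 0.00121). PR5 lost its call with only the 6 libraries in the fit, without and with a replicate block (adjusted p of 0.0546 and 0.0932). PR1 lost its call without cool IT replicate 2, warm IT replicate 2 or warm IT replicate 3 (adjusted p of 0.0626 to 0.109). It was also lost with only the 12 low-light libraries (0.0523) and with only the 6 libraries and a replicate block (0.115). The count of lower members was 0 or 1 without any 1 of the 6 libraries. ICS1, which makes the precursor of salicylic acid, was not called, at 3.48, 5.51 and 4.79 CPM in cool IT and 7.22, 8.19 and 10.1 CPM in warm IT, without overlap. With only the 6 libraries in the fit ICS1 was lower in cool IT, at an adjusted p of 0.00318.

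In the SW step averaged over light, 20 of the 22 salicylic acid genes were higher and 0 lower (median 2.24), against 3 and 0 in cool IT against warm SW. ICS1 rose by 1.94 in that SW step. Warm SW libraries spread widely too, with LURP1 at 0.761, 20.2 and 1.56 CPM and PR1 at 3.80, 70.2 and 21.6 CPM. Genes outside this list also rose both in cool IT and in the SW step. A large change shared by these steps was among the rules for naming genes, so their agreement is no separate result. Among them were SIB1, a regulator of chloroplast sigma factors, by 3.12 ± 0.70 and 3.87, and the wall-associated kinase WAK1 by 3.09 ± 0.51 and 2.89. The calcium-linked kinase CIPK25 rose by 3.94 ± 0.66 and 3.07, but stood at -0.83 in the SW step at low light alone. PXMT1, a methyltransferase, had 1.38, 3.90 and 6.77 CPM in cool IT, against 0.132, 0.165 and 0.145 CPM in warm IT, a ratio of summed counts of 27.3 (exact 95% interval 12.3 to 75.5; adjusted p = 0.000101). The ion channel gene CNGC11 had 22.6, 17.9 and 24.7 CPM in cool IT, against 0.0662, 0.414 and 1.23 CPM in warm IT (5.25 ± 0.36, adjusted p = 1.54e-09), and 18.9, 23.4 and 22.2 CPM in warm SW. In the SW step at low light alone CNGC11 stood at 0.59.

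Intracellular immune receptor genes (NLR genes) were split. Of 19 tested, 6 were higher in cool IT and 4 lower, against 20.4% and 20.0% of all genes. In cool IT against warm SW 1 was higher and 1 lower. RPP5 (AT4G16950) had 140, 110 and 81.9 CPM in cool IT, against 12.7, 14.7 and 14.5 CPM in warm IT (2.99 ± 0.19, adjusted p = 4.49e-10), and 102, 109 and 96.7 CPM in warm SW. Its cluster neighbours SNC1 and RPP4 rose by 2.2 ± 0.17 and 2.06 ± 0.16, and these 3 close relatives can exchange reads. ADR1-L3, a relative of helper receptors, was at the lowest value in all warm IT libraries and at least 8.15-fold higher in cool IT. WRR4 (AT1G56510), a white rust receptor, had 1.3, 1.25 and 1.24 CPM in cool IT, against 63.4, 60.0 and 78.7 CPM in warm IT (-5.73 ± 0.43, adjusted p = 8.16e-09). The neighbouring receptor genes CSA1 and DAR4 were at the lowest value in every cool IT library, against 14.1, 16.5 and 15.6 CPM and 26.6, 32.1 and 26.7 CPM in warm IT, so they were at least 66.0-fold and 122.0-fold lower. Both were also at the lowest value in all 3 warm SW libraries. The thionin gene THI2.2 was at least 174.0-fold lower in cool IT, at the lowest value in cool IT and warm SW, and QQS, an orphan gene known to affect leaf starch, had a ratio of summed counts of 177.0 (exact 95% interval 68.8 to 652.0) in cool over warm IT. QQS was at 13.9, 19.4 and 18.1 CPM in cool IT and at 17.1, 16.2 and 20.2 CPM in warm SW.

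BGLU18 (AT1G52400), a defence beta-glucosidase stored in ER bodies of rosette leaves, was among the largest decreases. It had 3.48, 3.69 and 3.63 CPM in cool IT, against 89.4, 59.9 and 164 CPM in warm IT (-4.86 ± 1.17, adjusted p = 0.00266). TSA1, an ER body protein encoded next to it, fell by 4.81 ± 1.18. The myrosinase-binding protein gene MBP1 had 0.486, 0.348 and 0.578 CPM in cool IT, against 36.9, 20.7 and 51.3 CPM in warm IT (-6.26 ± 1.35, adjusted p = 0.00107). The jacalin-like lectin gene JAL23 fell by 5.12 ± 1.21. MBP2 and the squalene epoxidase homologue SQP1 were at the lowest value in all cool IT libraries and at least 13.5-fold and 14.0-fold lower. MBP2 lost its call without cool IT replicate 2 or warm IT replicate 3 (adjusted p of 0.0559 and 0.069). In cool IT against warm SW, these 6 genes were not called. In the SW step BGLU18, MBP1 and TSA1 were higher, by 2.86, 2.41 and 1.98. Of 18 jasmonate genes 1 was higher in cool IT and 1 lower, against 13 higher and 0 lower in the SW step. With only the 12 low-light libraries in the fit, 8 jasmonate genes were lower in cool IT. Without cool IT replicate 3 or warm IT replicate 2 none was higher by edgeR, and without warm IT replicate 2 or cool high-light IT replicate 3, 2 were lower.

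Glucosinolates are the sulfur-rich defence compounds of this family. Of 23 genes of the pathway, 7 were lower in cool IT and 2 higher, against 11 lower and 0 higher in cool IT against warm SW and 8 lower and 6 higher in the SW step. CYP79B3, which starts the indole branch, had 16.1, 14.4 and 12.5 CPM in cool IT, against 49.8, 57.2 and 64.9 CPM in warm IT (-2.0 ± 0.43, adjusted p = 0.00109). The sulfotransferases SOT16, SOT17 and SOT18 fell by 1.27 ± 0.29, 1.79 ± 0.40 and 1.02 ± 0.23. FMOGSOX3, an oxygenase that modifies side chains, rose by 2.04 ± 0.51 and was lower in cool IT than in warm SW, at -1.25. With only the 6 or the 12 low-light libraries in the fit without a replicate block, 11 members were lower. Without cool IT replicate 2 or warm IT replicate 3, 1 member was higher.

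Growth genes other than those of gibberellin were more often lower than higher in cool IT. Of 13 shade and warmth growth genes, 7 fell and 1 rose (median -1.19), and 11 fell and 0 rose in the SW step. ATHB2 (AT4G16780), a homeobox gene induced by shade, had 4.45, 6.06 and 7.43 CPM in cool IT, against 38.1, 24.2 and 22.1 CPM in warm IT (-2.23 ± 0.32, adjusted p = 1.54e-05). IAA29, an auxin response gene, fell by 3.10 ± 0.46 and the homeobox gene HAT2 by 1.92 ± 0.31. PIF7, a phytochrome-interacting factor, was the member that rose, by 1.11 ± 0.27. The lower count was 4, 3 and 4 without cool IT replicate 1, cool IT replicate 2 and warm IT replicate 1. Of 14 gibberellin genes 3 were higher and 3 lower, near the 20.4% higher and 20.0% lower among all genes. With only the 6 libraries in the fit, 5 were higher. The growth repressors GAI and RGA, DELLA proteins, fell: GAI (AT1G14920) had 4.05, 5.23 and 5.03 CPM in cool IT, against 53.0, 56.2 and 45.5 CPM in warm IT (-3.43 ± 0.31, adjusted p = 7.94e-08), and RGA changed by -0.69 ± 0.13. The gibberellin receptor GID1A rose by 0.76 ± 0.18 and the synthesis enzyme GA20OX1 by 2.98 ± 0.79.

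Of 23 primary cell wall and expansion genes, 9 were lower in cool IT and 0 higher, against 17 and 0 in the SW step and 3 and 1 in cool IT against warm SW. FLA9 (AT1G03870), an arabinogalactan protein, averaged 22.7 ± 0.932 CPM in cool IT and 120 ± 3.42 CPM in warm IT (SD, n = 3 each), without overlap (-2.40 ± 0.42, adjusted p = 0.000154). The xyloglucan-modifying enzymes XTH4, XTH24, XTH25 and TCH4 fell by 2.06 ± 0.42, 3.10 ± 0.55, 4.03 ± 0.57 and 2.41 ± 0.50, and the cellulose synthase CESA6 by 1.02 ± 0.17. TCH4 was higher in cool IT than in warm SW, by 1.53. Fitted on the 6 libraries alone, 5 members were higher. The wall protein DGR2, the phosphoinositide-binding protein PATL2 and the transcription factor BZIP61 fell in cool IT by 1.87 ± 0.49, 2.78 ± 0.36 and 2.2 ± 0.52 and in the SW step by 2.80, 1.84 and 3.36. A large fall shared by both steps was among the rules for naming genes.

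Aquaporins, which carry water through membranes, fell broadly: 11 of 15 were lower in cool IT and 1 was higher (median -1.16). In the SW step 14 were lower and 0 higher, but in the SW step at low light alone 2 were lower and 0 higher. In cool IT against warm SW 2 were lower and 0 higher. DELTA-TIP (AT3G16240), a vacuolar aquaporin, had 105, 123 and 96.0 CPM in cool IT, against 406, 567 and 443 CPM in warm IT (-2.13 ± 0.44, adjusted p = 0.000718). TIP2;2 fell by 3.02 ± 0.23, and the plasma membrane aquaporins PIP1C, PIP2;3 and PIP2A by 2.51 ± 0.41, 1.61 ± 0.27 and 1.16 ± 0.22. PIP2;8 rose by 4.05 ± 0.59, with 3.24, 8.36 and 4.54 CPM in cool IT, against 0.397, 0.496 and 0.0723 CPM in warm IT, and fell by 1.75 in the SW step. The lower count was 7 without cool IT replicate 1. Close PIP copies can exchange reads.

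Wax and cuticle genes were lower in part: 9 of 18 were lower in cool IT and 0 higher, against 9 and 1 in the SW step and 2 and 0 in cool IT against warm SW. At low light alone, the SW step had 1 lower and 1 higher. The fatty acid elongases KCS12, KCS20, KCS1 and KCS9 fell by 1.99 ± 0.37, 1.87 ± 0.24, 1.68 ± 0.38 and 0.80 ± 0.23, and CER3, which makes wax alkanes, by 1.36 ± 0.31. KCS12 had 24.5, 31.0 and 48.0 CPM in cool IT, against 124, 126 and 162 CPM in warm IT. The lower count was 5 without cool IT replicate 2 or warm IT replicate 1. The epidermis markers are not a separate set, because CUT1 and LTP1 are in both lists. Of these markers 3 of 4 tested were lower in cool IT, and 1 of the 5 listed was at the lowest value in all 6 libraries. Their summed level was 207.7 to 252.8 CPM in cool IT and 250 to 399.4 CPM in warm IT. ATML1, a regulator of epidermal identity, had 12, 12.2 and 12.5 CPM in cool IT, against 23.4, 21.2 and 22 CPM in warm IT (-0.86 ± 0.20, adjusted p = 0.00167). The part of the epidermis in the wax result was not tested, and in leaf discs fewer cells of a type and less RNA per cell cannot be told apart. The epidermal count was 1 without cool IT replicate 1 or 2 or warm IT replicate 1 or 3.

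**Figure D4:**
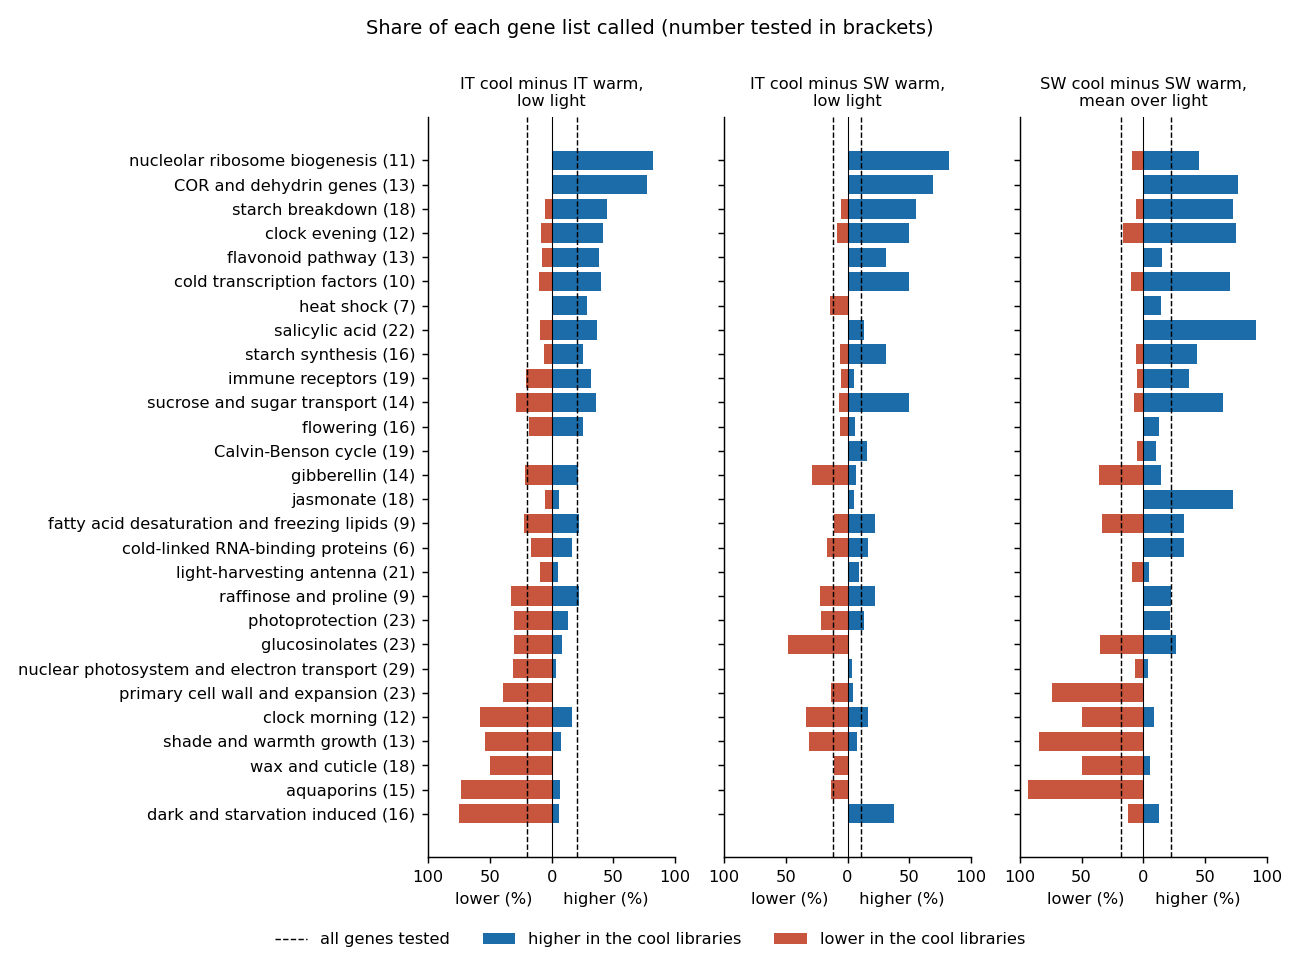
Share of each gene list called higher (blue, right) or lower (red, left) in cool IT against warm IT, cool IT against warm SW, and cool against warm SW averaged over light, with the number of members tested in brackets and the share of all genes called as dashed lines. The lists are ordered by the difference of the shares in the first panel, from 9 of 11 nucleolar genes higher at the top to 12 of 16 dark- and starvation-induced genes lower at the bottom.

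Photosystem and antenna genes together were called lower at about the share of all genes (20.0%), and their counts depended on the libraries in the fit. Of 29 nuclear genes of the photosystems and electron transport, 9 were lower in cool IT and 1 higher (median -0.59), and of 21 light-harvesting antenna genes 2 were lower and 1 higher (median -0.64). PETE1 (AT1G76100), a plastocyanin, had 42.5, 45.2 and 45.7 CPM in cool IT, against 112, 114 and 121 CPM in warm IT (-1.38 ± 0.30, adjusted p = 0.00102). The photosystem subunits PSAF and PSBR fell by 1.01 ± 0.30 and 0.55 ± 0.17, and the antenna proteins LHCA2 and LHCB7 by 0.93 ± 0.26 and 0.67 ± 0.16. LHCB4.3, an antenna protein of high light, had 39.5, 51.5 and 33.9 CPM in cool IT, against 10.4, 8.60 and 8.53 CPM in warm IT (2.18 ± 0.40, adjusted p = 0.000201), and was higher by 1.5 in cool IT than in warm SW and by 1.81 in the SW step. With only the 6 libraries in the fit, 22 photosystem and 16 antenna genes were lower. Without cool IT replicate 1 or 3 or warm IT replicate 2 or 3, 4, 3, 5 and 4 photosystem genes were lower. Without cool IT replicate 2 or warm IT replicate 1 or 2, 0 were higher. In cool IT against warm SW 0 genes of either list were lower. None of 19 Calvin-Benson cycle genes was called in either direction by edgeR, against 1 higher and 1 lower by DESeq2 and 3 higher and 4 lower with only the 6 libraries in the fit.

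Of 23 photoprotection genes 3 were higher in cool IT and 7 lower. LCNP, a plastid lipocalin that acts in sustained dissipation of light, had 10.3, 15.0 and 12.6 CPM in cool IT, against 2.78, 3.31 and 2.96 CPM in warm IT (2.07 ± 0.27, adjusted p = 5.5e-06). The stromal ascorbate peroxidase SAPX rose by 1.46 ± 0.22. The copper-zinc superoxide dismutases CSD1 and CSD2 fell by 1.74 ± 0.29 and 2.67 ± 0.54, and the one-helix protein OHP2 by 0.68 ± 0.11. LCNP was also higher in cool IT than in warm SW, by 1.78, and in the SW step, by 1.35.

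Flavonoid genes were higher in part: 5 of 13 tested rose and 1 fell (median 0.53, or 0.37 with genes at the lowest value in 1 group set to their bound). CHS (AT5G13930), chalcone synthase, the entry enzyme, had 18.5, 29.0 and 22.6 CPM in cool IT, against 0.530, 2.98 and 0.217 CPM in warm IT (4.3 ± 0.95, adjusted p = 0.00132). Chalcone isomerase, CHI, rose by 1.68 ± 0.42 and C4H, an earlier enzyme, by 1.14 ± 0.14. CHIL, an enhancer of chalcone synthase, was at the lowest value in all warm IT libraries and at least 4.85-fold higher in cool IT. CHS was also higher in cool IT than in warm SW, by 2.77, while CHI was not called there, at -0.17, and 7 of the 22 listed genes were at the lowest value in all 6 IT libraries. In the SW step 2 members were higher and 0 lower, and in the SW step at low light alone 0 were higher and 5 lower. Without cool IT replicate 1, 2 members were lower in cool IT.

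Ribosome biogenesis genes of the nucleolus rose together. Of 11 tested, 9 were higher in cool IT and 0 lower (median 1.82), and 9 were higher and 0 lower in cool IT against warm SW (median 0.85). NAP57 (AT3G57150), the pseudouridine synthase of ribosomal RNA, had 18.1, 16.4 and 14.6 CPM in cool IT, against 2.91, 2.98 and 2.24 CPM in warm IT (2.59 ± 0.22, adjusted p = 2.66e-08). NOP56, of the methylation complex, had 37.6, 31.1 and 28.6 CPM in cool IT, against 6.16, 6.2 and 5.28 CPM in warm IT (2.46 ± 0.26, adjusted p = 4.41e-07). APUM24, which acts in ribosomal RNA processing, rose by 2.43 ± 0.35 and PES, needed for the large subunit, by 1.3 ± 0.16. In the SW step 5 were higher and 1 lower (median 0.54).

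**Figure D5:**
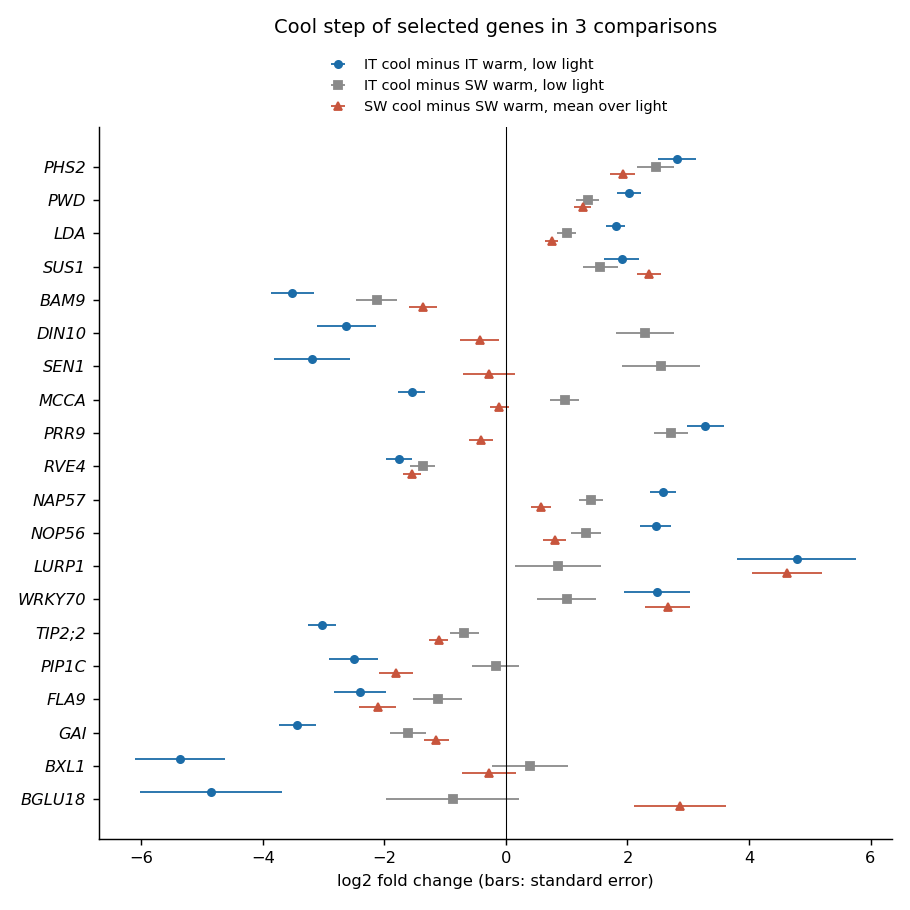
Log2 fold changes with standard errors of 20 genes, selected after their values were seen, in cool IT against warm IT (circles), cool IT against warm SW (squares) and cool against warm SW averaged over light (triangles). Starch genes lie on the same side of 0 in the 3 comparisons, whereas DIN10, SEN1 and MCCA are below 0 in the first and above 0 in the second.

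Flowering genes were called at about the shares of all genes (20.4% higher and 20.0% lower): of 16 tested, 4 were higher in cool IT and 3 lower. The repressors SVP, MAF1 and MAF3 rose by 0.77 ± 0.18, 0.86 ± 0.20 and 0.89 ± 0.16, the activator AGL24 fell by 2.86 ± 0.71, and MAF4 was at the lowest value in all cool IT libraries and at least 10.2-fold lower. The main repressor FLC (AT5G10140) had 31.6, 29.6 and 37.1 CPM in cool IT, against 26.8, 1.90 and 30.9 CPM in warm IT, and was not called (0.71 ± 0.58, adjusted p = 0.351). Warm IT replicate 2 stood far below the other 5 libraries for FLC. Of 7 heat shock genes 2 were higher and 0 lower, or 1 higher without cool IT replicate 2 or 3 or warm IT replicate 1, and 1 was lower without warm IT replicate 1.

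Few vascular and stomatal markers were called. Of 6 phloem markers 2 were lower and 0 higher, of 5 xylem markers 0 were called by edgeR (1 was lower by DESeq2 and without cool IT replicate 2), and of 6 guard cell markers 1 was higher and 1 lower. Summed levels of the phloem list were 290.9 to 351.4 CPM in cool IT and 318.7 to 444.4 CPM in warm IT. PP2-A1, a phloem protein, fell by 1.00 ± 0.19, and the phloem count was 1 without cool IT replicate 1 or 3 or warm IT replicate 1 or 2. For guard cells the anion channel SLAC1 rose by 0.86 ± 0.23 and the potassium channel KAT1 fell by 0.68 ± 0.19, with summed levels of 14.52 to 18.12 CPM in cool IT and 15.97 to 19.67 CPM in warm IT.

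The low-light cool step was also compared between the ecotype labels by testing the IT step minus the SW step. In that test the code series cancels, but only the IT step crosses transcript sets, so ecotype label and set cannot be told apart. The SW low-light step alone had 3732 genes higher (21.1%) and 3385 lower (19.1%). The difference was called for 6304 genes (35.6%), of which 3181 (18.0% of all genes tested) were positive and 3123 negative. Nucleolar genes differed most often: 10 of 11 had a positive difference and 0 a negative one, with 0 higher and 9 lower in the SW step at low light. For NAP57 the SW step was -1.13 and for NOP56 -0.69, both called. COR and dehydrin genes had 6 positive and 0 negative differences of 13, and KIN2 fell by 1.43 in the SW step at low light, where 0 members were higher and 1 lower. Salicylic acid genes had 12 negative and 0 positive differences of 22, with 21 higher in the SW step, and dark- and starvation-induced genes had 9 negative and 0 positive of 16.

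Among the genes with the smallest adjusted p for that difference, EDA25 (AT1G72440) had 23.7, 21.5 and 22.6 CPM in cool IT, against 5.03, 7.11 and 6.29 CPM in warm IT, a rise of 1.88 ± 0.19, and fell by 1.63 in the SW low-light step. GDPD4, a glycerophosphodiester phosphodiesterase, rose by 3.20 ± 0.26 in IT and fell by 1.11 in SW, and PCN, a WD40 repeat protein, rose by 1.42 ± 0.17 in IT and fell by 1.18 in SW. In the other direction ARO2, AQI and NIG fell in IT by 1.66 ± 0.14, 1.41 ± 0.11 and 1.43 ± 0.12 and rose in SW by 0.76, 0.50 and 0.54. PDE331 fell in both, by 3.52 ± 0.17 in IT and by 1.03 in SW, with 3.16, 3.07 and 4.29 CPM in cool IT, against 35.2, 38.5 and 47.3 CPM in warm IT.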

How the data were processed

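RNA was sequenced from leaf discs in 24 libraries of 8 groups. The deposited table holds whole-number counts per gene for 33610 genes, and 0 of its columns lacked a sample. Per the submitters' processing notes HISAT, StringTie, DESeq2 and build TAIR10 were used; their versions, their roles and any strand setting were not stated. The lowest value is 1, so an offset or replacement of 0 may be present and floors are read at 3 counts. Gene names came from the RefSeq table (TAIR10.1), which matched 28932 of the identifiers.

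Genes with low counts were dropped by filterByExpr (minimum count 10, minimum total 15), and TMM scaling with edgeR 4.0.16 (R 4.3.3, limma 3.58.1) fitted all 24 libraries in 8 groups with a robust quasi-likelihood model. Adjusted p-values are Benjamini-Hochberg over all genes tested, and the standard error is the log2 fold change over the root of F. The code was tested on simulated data. Exact intervals and floors cover counting error only. The members, lists and comparisons were chosen with earlier results of these data known. Named genes were those of largest change in IT, those of largest change shared with SW, those of smallest p for the difference between ecotypes, up to 5 of smallest p in each list, and a few singled out by earlier results. KIN1, RD29A, COR413IM1, GRP8, CSP1, CSP2, CSP4, ISA3 and ICS1 were added after their values were seen. Alternatives were DESeq2 1.42.0, another scaling, other filters, 1 count subtracted, other sets of libraries, a replicate block and each library left out.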

Additional observations from a re-analysis of the deposited data

Results flagged for a closer look

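For these named genes the cool step at low light differed between the ecotype labels, by a test of the difference itself: the IT step minus the SW step, by edgeR's quasi-likelihood test, at an adjusted p below 0.05 over all genes. Values are differences of log2 fold changes, positive where the IT step is the higher. Most named genes were picked by their change in the same IT libraries or by this difference. A called difference was therefore favoured by the choice, and over all genes tested 35.6% had one. Named genes without a called difference are left out here. Ecotype label and transcript set cannot be told apart in them. The fitted values of genes at or near the lowest value in 1 group (GOLS3, CBF2, QQS, ADR1-L3, THI2.2, CHIL) depend on the prior count and are no bounds. Groups of 3 libraries were too small for a test of outlying samples.

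Cold-regulated and cold-linked genes had positive differences of 6.69 for KIN2, 5.75 for COR15A, 3.57 for COR15B, 1.52 for COR413-PM1, 4.1 for RD29A, 4.54 for CBF2, 1.73 for DREB2A, 3.54 for GRP7, 8.07 for GOLS3 and 2.02 for P5CS1. Negative differences were -1.64 for P5CR and -3.34 for PRODH1. Starch and sugar genes had positive differences of 1.88 for PHS2, 1.38 for PWD, 1.28 for LDA, 0.86 for SS4, 1.07 for PGM1, 1.80 for GBSS1, 0.62 for TMT1 and 7.69 for QQS. Negative differences were -1.71 for BAM9, -2.33 for ERDL6 and -2.29 for SWEET17. Dark- and starvation-induced genes and BXL1 had negative differences of -3.17 for DIN10, -4.78 for SEN1, -2.42 for MCCA, -1.99 for IVD and -8.24 for BXL1. Ribosome biogenesis genes had positive differences of 3.72 for NAP57, 3.15 for NOP56, 2.3 for PES and 3.48 for APUM24. Defence genes, receptors, glucosinolate genes and the kinase CIPK25 had positive differences of 4.66 for CNGC11, 4.77 for CIPK25, 1.72 for RPP4, 2.49 for RPP5, 1.65 for SNC1, 4.56 for ADR1-L3 and 4.37 for FMOGSOX3. Negative differences were -5.73 for ICS1, -6.28 for WRR4, -8.90 for THI2.2, -5.79 for MBP1, -4.25 for BGLU18 and -1.85 for SOT16. Growth, wall, water and wax genes had positive differences of 1.93 for PIF7, 3.35 for GA20OX1 and 4.62 for PIP2;8. Negative differences were -1.33 for HAT2, -1.68 for GAI, -1.80 for FLA9, -4.12 for XTH24, -4.99 for XTH25, -5.55 for TCH4, -2.05 for PATL2, -2.72 for TIP2;2, -2.49 for PIP1C, -1.09 for PIP2;3, -1.75 for KCS1, -0.94 for KCS9, -2.54 for KCS12, -1.05 for KCS20 and -1.71 for CER3. Photosynthesis, photoprotection and flavonoid genes had positive differences of 1.03 for LCNP, 1.37 for SAPX, 5.84 for CHS, 3.21 for CHI, 3.72 for CHIL and 0.84 for C4H. Negative differences were -1.26 for PETE1, -0.71 for PSBR, -1.38 for CSD1 and -0.43 for OHP2. Flowering repressors and cell type markers had positive differences of 0.75 for SVP, 0.97 for MAF1 and 1.13 for MAF3. Negative differences were -0.76 for PP2-A1 and -0.77 for KAT1. Genes of smallest adjusted p for the difference had positive differences of 3.51 for EDA25, 4.31 for GDPD4 and 2.60 for PCN. Negative differences were -2.41 for ARO2, -1.91 for AQI, -1.97 for NIG and -2.49 for PDE331.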

How the results depend on the processing

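The counts of genes higher and lower in cool IT (3605 and 3541) stayed within 1.5 times under the 15 alternatives run. DESeq2 gave 3435 and 3574, only the 6 libraries 4094 and 4207, and leaving out each of the 6 libraries 2971 to 3239 and 2929 to 3262. Replicate numbers did not pair the libraries: the correlations of same-numbered deviations were 0.068, 0.236 and -0.008, and not every library correlated best with its own number. With only the 6 libraries and a replicate block, 4120 genes were higher and 4245 lower. Of 148 named genes called, 141 were called under every alternative, 7 lost the call under at least 1 and 0 reversed, and 2 uncalled genes gained one. Most named genes were picked for large changes or small p in the main fit. Kept calls were thus favoured, and these counts do not extend to all called genes. Counts over the lists were less steady: 31 of 66 moved by over 1.5 times under at least 1 alternative, 19 of them with only the 6 libraries in the fit and 6 with DESeq2; the cause was not tested. Depth limits genes at or near the lowest value, such as the CBF genes, where no warm IT library held over 3 counts.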
